A study of Mus musculus with 6 samples.

Results

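Dnmt3l and 8 related genes were described here across 6 mice. Pfkl, Gatd3a, Lrrc3, Trpm2 and Tspear lie, like Dnmt3l, beside Aire on mouse chromosome 10. Dnmt1, Dnmt3a and Dnmt3b are 3 other DNA methyltransferase genes, which lie elsewhere. A further one, Dnmt3c, had no probe set with 1 gene symbol. The 9 are part of the 19938 genes that such a probe set measured, and all 9 were bright enough to be among the 13925 genes tested. The genes were selected by position or family and on the difference between genotypes, which was already known for several of them, so their differences are given as a description, with no test. Cells were thymic medullary epithelial cells, sorted from thymi of mice 4 to 6 weeks old as cells lacking the leukocyte marker CD45, with intermediate Ly51 and high MHC class II. All mice were (B6xNOD)F1, 3 of them labelled Aire WT and 3 labelled Aire KO (Aire-/-), each mouse with an array of its own. Aire is a regulator that lets these cells transcribe genes of other organs. The stretch of Aire that the knockout removes is not given in the labels.

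DNA methylation is the addition of methyl groups to cytosines, mostly where a C is followed by a G, and methylation of a promoter generally goes with silencing of its gene. Dnmt3a and Dnmt3b place new methyl groups, and Dnmt1 copies the pattern onto new strands when DNA is replicated. Dnmt3l has no catalytic activity of its own: it binds histone H3 tails that lack methylation at lysine 4 and stimulates Dnmt3a and Dnmt3b, and it is known above all from germ cells, where it is needed to set maternal imprints, and from embryonic stem cells.

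In the RefSeq annotation (GRCm38.p6) Dnmt3l is the protein-coding gene next to Aire on one side, followed by Icosl and Gatd3a, and Pfkl is the next one on the other side, followed by Cfap410, Trpm2 and Lrrc3. Dnmt3l and Aire run on opposite strands with overlapping annotated spans, and the first of the 3 annotated Dnmt3l starts lies inside Aire. Between the starts of Tspear and Lrrc3 are 23 other protein-coding genes, all 23 of them inside the long span of Tspear. The 250 bases before each start of Dnmt3l are printed here because Dnmt3l has by far the largest difference of the 9. They stand beside those of Pfkl, its partner on the other side of Aire, and of Dnmt3b, a catalytic family member, so that their content of CG, the letters that are methylated, can be seen. All run 5′ to 3′ on the gene's own strand, with each CG in capitals.
Dnmt3l start 1, chr10:78042037-78042286, plus strand: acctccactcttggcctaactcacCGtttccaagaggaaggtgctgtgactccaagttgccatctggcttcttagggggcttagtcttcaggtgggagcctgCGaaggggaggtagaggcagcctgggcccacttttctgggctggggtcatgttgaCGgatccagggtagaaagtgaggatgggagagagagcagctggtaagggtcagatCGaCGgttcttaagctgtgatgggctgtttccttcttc
Dnmt3l start 2, chr10:78049592-78049841, plus strand: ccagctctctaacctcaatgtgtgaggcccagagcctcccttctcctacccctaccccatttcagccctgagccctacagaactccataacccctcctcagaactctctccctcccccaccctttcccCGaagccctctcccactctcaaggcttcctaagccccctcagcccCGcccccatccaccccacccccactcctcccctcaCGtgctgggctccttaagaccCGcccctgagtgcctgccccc
Dnmt3l start 3, chr10:78055085-78055334, plus strand: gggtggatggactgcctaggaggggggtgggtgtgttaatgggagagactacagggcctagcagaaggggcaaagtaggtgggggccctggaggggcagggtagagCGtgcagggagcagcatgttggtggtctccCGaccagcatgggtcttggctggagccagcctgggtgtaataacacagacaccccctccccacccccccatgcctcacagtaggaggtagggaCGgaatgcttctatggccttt
Pfkl, chr10:78009808-78010057, minus strand: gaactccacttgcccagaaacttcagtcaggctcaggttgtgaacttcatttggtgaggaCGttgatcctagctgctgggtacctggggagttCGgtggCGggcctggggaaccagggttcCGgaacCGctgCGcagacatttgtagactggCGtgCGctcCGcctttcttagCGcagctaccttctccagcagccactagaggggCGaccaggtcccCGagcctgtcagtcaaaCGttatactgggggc
Dnmt3b, chr2:153649199-153649448, plus strand: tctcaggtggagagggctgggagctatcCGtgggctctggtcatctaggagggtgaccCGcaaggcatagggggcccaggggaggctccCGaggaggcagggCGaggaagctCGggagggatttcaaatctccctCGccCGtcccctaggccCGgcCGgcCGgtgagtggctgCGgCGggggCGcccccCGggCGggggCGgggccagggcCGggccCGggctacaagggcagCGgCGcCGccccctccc

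The Dnmt3l windows held 5, 4 and 3 CG, against a median of 6 over 32851 windows of the same length in the RefSeq table, of which 44.4%, 37.8% and 29% held fewer. The window of Pfkl held 13, more than 68.5% of all windows, and that of Dnmt3b 21, which is more than 83.7% of all windows. Among the others, Gatd3a had 20, Trpm2 10 and Lrrc3 9. The 3 starts of Dnmt3a had 38, 40 and 15 and those of Dnmt1 2, 7 and 26, so within these 2 genes the count depended on the start. The motif GGGCGG, read on both strands and overlapping with CG, occurred before the second Dnmt3l start, in 32.7% of all windows, and also before Gatd3a, Lrrc3, Trpm2, Dnmt3b, the third start of Dnmt1 and all 3 starts of Dnmt3a. The motif TATAAA, on either strand, occurred before Trpm2 alone among the 8 genes with a window and in 12.4% of all windows. Tspear had no window in the table. The array sums a whole transcript and does not tell the starts of Dnmt3l apart.

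Array medians ran from 92.9 to 98.2 in intensity units, and the number of identical values in a pair of arrays was at most 50. The Aire probe set itself read 11.998, 11.92 and 11.99 in log2 intensity on the WT arrays and 12.38, 12.41 and 12.42 on the arrays labelled KO. It was higher on every array labelled KO. It does not check the labels, since the deleted stretch is unknown here, and the groups below are called by their labels. All 12 medullary epithelial markers were tested, with 0 called higher and 3 lower by limma (4 and 4 at an unadjusted p under 0.05). Over all tested genes the called shares were 12% and 14.1%. Those called lower were the keratin genes Krt5 (-0.84) and Krt14 (-0.44) and the adhesion gene Epcam (-0.37). The costimulatory gene Cd80 and the class II genes H2-Eb1, H2-Aa and H2-Ab1 stood at 0.22, 0.22, 0.20 and 0.20, and the count called higher was 4 with an offset of 32 or with trended, robust variances, 3 with array weights, 2 with the stricter filter and 1 after a further quantile normalization or with probe sets averaged. Among markers of other cells, Psmb11, Cd79a, Ms4a1, Itgax, Siglech, Cd3d, Rag2 and Dntt lay below the intensity filter of 5.97 on too many arrays to be tested. Others in the same lists were bright enough, with WT means of 8.51 for Cd3g, 7.09 for Cd4, 7.21 for Csf1r and 7.69 for Prss16. Among fibroblast markers Col1a1 had a WT mean of 8.54. The purity of the cells was not tested.

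Dnmt3l was the member with the largest difference between the genotypes. Its log2 intensity was 8.28, 8.39 and 8.54 in the 3 WT mice and 10.51, 10.36 and 10.41 in the 3 mice labelled KO. Every KO value lay above every WT value, and the gap between the highest WT and the lowest KO mouse was 1.82. The means were 8.40 ± 0.13 and 10.43 ± 0.08 (SD, n = 3), a difference of 2.02 (SE 0.09), or 4.07-fold on the intensity scale. By size of rise it was number 4 of the 13925 genes tested. Its spread between mice was ordinary: a pooled SD of 0.107, with 46.2% of tested genes below that. In bulk samples like these, a change in the number of cells of a type and in RNA per cell cannot be told apart. With 1 array left out at a time the difference stayed between 1.96 and 2.09.

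**Figure D1:**
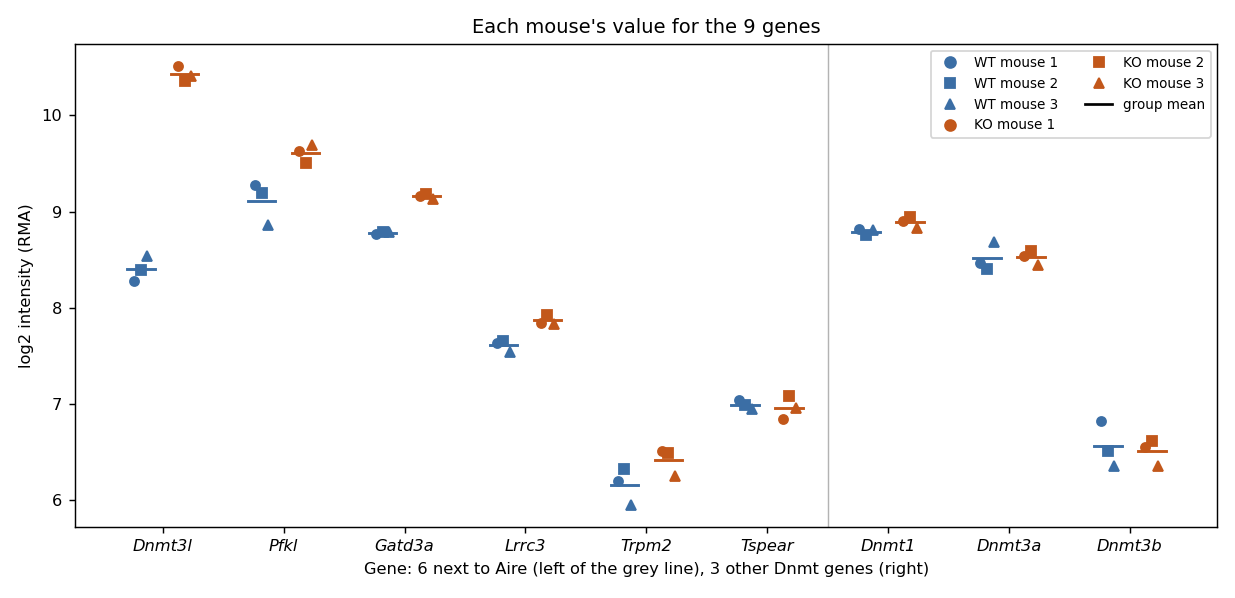
Log2 intensity of each of the 9 genes (vertical axis) in each mouse, WT in blue and KO in orange, with a bar at each group mean of 3 mice. Heights of different genes are not comparable, since each probe set has its own brightness. The KO values of Dnmt3l, from 10.36 to 10.51, sit far above its WT values of 8.28 to 8.54, while the 3 other Dnmt genes on the right show group means close together.

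Of the 9 genes, 4 were called higher and 0 lower in limma's fit across all genes, with p-values adjusted by Benjamini-Hochberg and a threshold of 0.05 (5 and 0 at an unadjusted p under 0.05). Over all tested genes, 12% were called higher and 14.1% lower. The groups did not overlap in 5 of the 9 genes, against 42.4% of all tested genes. Since the difference was known when the genes were chosen, these counts describe the 9 genes and nothing is read from them. The called genes were Dnmt3l, Pfkl, Gatd3a and Lrrc3, and those not called were Trpm2, Tspear, Dnmt1, Dnmt3a and Dnmt3b.

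Next to Aire on the side away from Dnmt3l lies Pfkl, the liver-type subunit of phosphofructokinase, an enzyme that commits glucose to glycolysis. Its values were 9.27, 9.20 and 8.86 in WT and 9.63, 9.51 and 9.69 in KO (log2 intensity). The groups did not overlap, but WT mouse 3 lay well below the other WT mice. The difference was 0.50 (SE 0.11, n = 3 per group), or 1.41-fold, and it was 0.37 without WT replicate 3. Its pooled SD of 0.168 was larger than that of 82.3% of tested genes.

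Gatd3a, which encodes a mitochondrial protein of the glutamine amidotransferase class, lies beyond Icosl on the Dnmt3l side. Its values were 8.76, 8.78 and 8.78 in WT and 9.16, 9.18 and 9.14 in KO. The mice of a group were almost identical, with SDs of 0.011 and 0.024, and the groups stood 0.35 apart at their nearest values. The difference was 0.38 (SE 0.08, n = 3 per group), or 1.30-fold. Only 0.2% of tested genes had a smaller pooled SD, so a modest rise stood clear of the spread.

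Lrrc3, a gene for a leucine-rich repeat membrane protein, had values of 7.64, 7.66 and 7.54 in WT and 7.85, 7.93 and 7.84 in KO. The groups did not overlap, with a gap of 0.18. The difference was 0.26 (SE 0.08, n = 3 per group), or 1.19-fold. Its call was the least secure of the 4: it was lost when any one of WT replicates 1, 2 and 3 or KO replicates 1, 2 and 3 was left out, with differences from 0.22 to 0.28.

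Trpm2, a calcium-permeable channel gated by ADP-ribose and oxidative stress, lies between Pfkl and Lrrc3 and was dim. Its values were 6.20, 6.33 and 5.95 in WT, the last below the filter, and 6.51, 6.49 and 6.25 in KO. One KO mouse lay under the highest WT mouse, so the groups overlapped. The difference of 0.26 (SE 0.11, n = 3 per group) was not called, with a spread between mice about as wide as that of Pfkl. It was 0.16 without WT replicate 3 and 0.34 without WT replicate 2 or KO replicate 3, and 0.17 with array weights.

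Tspear, whose product carries a thrombospondin-type domain and EAR repeats and is linked to hearing and to tooth and hair formation, had values of 7.05, 6.99 and 6.95 in WT and 6.85, 7.08 and 6.96 in KO. The groups overlapped fully, and the difference was -0.03 (SE 0.09, n = 3 per group), not called. It was the one gene of the 6 beside Aire whose difference was below 0.

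**Figure D2:**
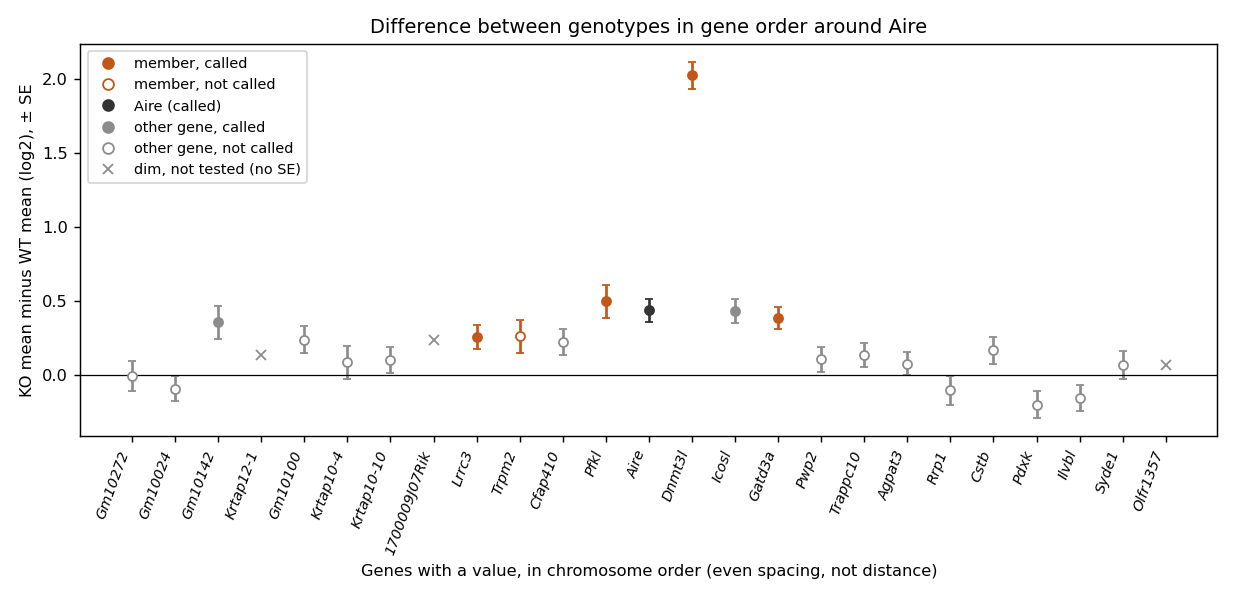
KO mean minus WT mean in log2 (vertical axis, bars give the SE of the fit) for Aire and the 12 genes with a value on each side of it, in chromosome order at even spacing. Filled points were called, open points were not, and crosses were too dim to test. Dnmt3l stands alone at 2.02, while Pfkl, Aire, Icosl and Gatd3a lie between 0.38 and 0.50. Tspear starts further out and is not drawn.

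The other genes around Aire were read from the gene order, 12 genes with a value on each side. Leaving out Aire and the members, 19 remained and 16 of them were bright enough to test. Of those 16, 2 were called higher and 0 lower by limma (4 and 1 at an unadjusted p under 0.05), and 14 were not called. Over all tested genes 12% were called higher and 14.1% lower. The members left out of this count include Dnmt3l, Pfkl, Gatd3a and Lrrc3, which were called higher. They were chosen with the difference known, so nothing is read from the count of the rest. The median difference of the 16 was 0.09 against 0.02 over all tested genes. Icosl, a costimulatory ligand of T cells between Dnmt3l and Gatd3a, rose from 11.19, 11.12 and 11.20 in WT to 11.62, 11.65 and 11.53 in KO, a difference of 0.43 (SE 0.08, limma adjusted p = 0.0022). Gm10142 rose by 0.36 (SE 0.11, limma adjusted p = 0.036), a call that was lost on leaving out WT replicate 3 (0.069) or any of KO replicates 1 (0.075), 2 (0.088) and 3 (0.10), so that Icosl was then the 1 call.

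The remaining tested genes in the window were not called with all arrays at equal weight. Gm10100 was called higher without WT replicate 2 (0.32, limma adjusted p = 0.034) and Cstb with array weights (0.22, limma adjusted p = 0.049). Cfap410, between Pfkl and Trpm2, stood at 0.22 (SE 0.09, limma adjusted p = 0.085) with groups that did not overlap. Beyond Gatd3a, Pwp2 stood at 0.10, Trappc10 at 0.13, Agpat3 at 0.08, Rrp1 at -0.10, Cstb at 0.17, Pdxk at -0.20, Ilvbl at -0.16 and Syde1 at 0.06. On the other side Krtap10-10 stood at 0.10, Krtap10-4 at 0.08, Gm10100 at 0.24, Gm10024 at -0.09 and Gm10272 at -0.01. The keratin-associated protein genes belong to a family of near-identical copies, and shared probe sequence among them was not tested. No gene in the window other than Dnmt3l differed by more than 0.50. Whether probes of the Dnmt3l or Aire probe sets fall in the stretch that both genes span is not given in the sources used here, and its part in the values was not tested.

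Dnmt3l was then set beside its family. Dnmt1, the maintenance enzyme, read 8.82, 8.75 and 8.81 in WT and 8.90, 8.94 and 8.83 in KO. All KO mice lay above all WT mice, but by a gap of only 0.014, and the difference of 0.10 (SE 0.08, n = 3 per group) was not called.

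Dnmt3a, a de novo enzyme that Dnmt3l stimulates, read 8.46, 8.40 and 8.68 in WT and 8.54, 8.59 and 8.44 in KO. The groups overlapped and the difference was 0.01 (SE 0.09, n = 3 per group). Without 1 array it ranged from -0.05 to 0.09, on both sides of 0.

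Dnmt3b, the second de novo enzyme, was dimmer and more variable, at 6.83, 6.51 and 6.35 in WT and 6.55, 6.62 and 6.36 in KO. The groups overlapped and the difference was -0.05 (SE 0.12, n = 3 per group), with a range of -0.16 to 0.08 when 1 array was left out. None of the 3 enzyme genes was called by limma, and 0 had an unadjusted p under 0.05. A missed threshold does not show that their levels were equal.

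Dnmt3l was also measured against each enzyme gene on the same array. The difference of such a log2 ratio is that of Dnmt3l less that of the enzyme gene, so it is no separate evidence. Relative to the WT mean of the log2 ratio, Dnmt3l over Dnmt1 stood at 2.0, 1.80 and 1.97 in the KO mice and between -0.15 and 0.12 in the WT mice. Over Dnmt3a it stood at 2.08, 1.88 and 2.08 in KO and between -0.07 and 0.11 in WT. Over Dnmt3b it stood at 2.12, 1.90 and 2.21 in KO and between -0.39 and 0.34 in WT, the wider range coming from Dnmt3b. In each ratio every KO mouse lay above every WT mouse. These ratios use probe sets of unequal brightness, so they show unequal change and not how many transcripts of each gene there were.

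Against its neighbours the same measure was smaller. Dnmt3l over Pfkl differed by 1.53 between the genotypes, over Gatd3a by 1.64 and over Lrrc3 by 1.77. Each of these is larger than the difference of the neighbour itself.

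**Figure D3:**
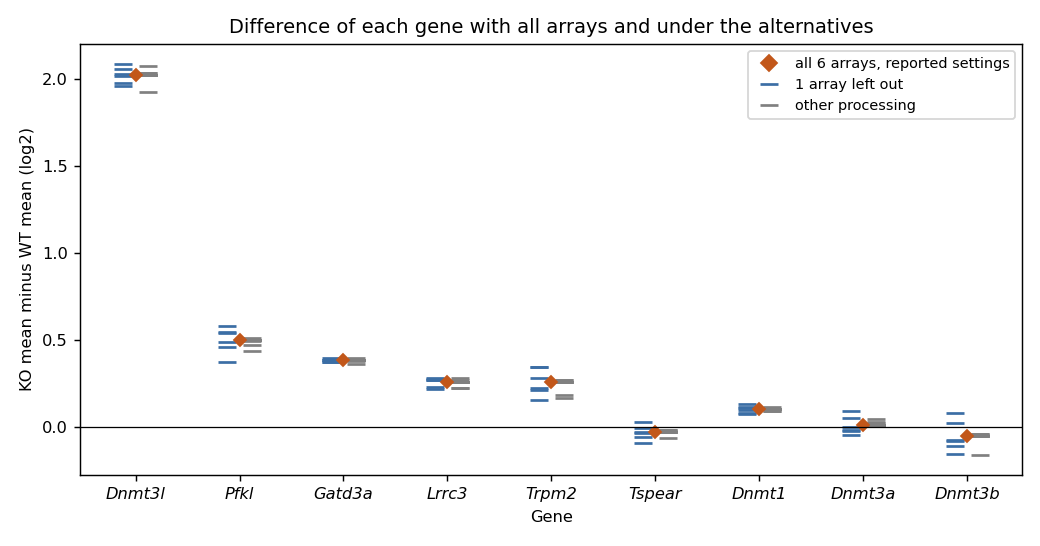
KO minus WT difference in log2 (vertical axis) of each of the 9 genes with all 6 arrays (orange diamonds), with 1 array left out (blue dashes) and under the other processing choices (grey dashes). Dnmt3l lies between 1.93 and 2.09 throughout, and Tspear, Dnmt3a and Dnmt3b have values on both sides of 0 when an array is left out.

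Other genes of DNA methylation were called in both directions. From a list of 26 writers, readers and erasers, 21 were tested, of which 4 rose, 4 fell and 13 were not called by limma. At an unadjusted limma p under 0.05 the counts were 5 higher and 7 lower. Over all tested genes 12% rose and 14.1% fell, and nothing is read from the counts. The median difference was -0.05 against 0.02 over all tested genes. Cdca7l, a relative of the Hells cofactor Cdca7, rose from 8.37, 8.27 and 8.17 in WT to 9.41, 9.46 and 9.47 in KO. Its groups were far apart, a difference of 1.17 (SE 0.08, n = 3 per group, limma adjusted p = 1.7e-06). Tet2, which oxidises methylcytosine on the way to its removal, rose by 0.49 (SE 0.10, limma adjusted p = 0.0045). The other Tet genes, Tet1 (-0.40, limma adjusted p = 0.085) and Tet3 (-0.25, 0.11), were not called. Both were called lower without WT replicate 2 (0.024 and 0.029). So was Tet1 without KO replicate 2 (0.035), and Tet3 with probe sets averaged (0.047). Mbd2, a reader of methylated CG, fell by 0.61 (SE 0.10, limma adjusted p = 0.0010). Hells, a remodeller that opens chromatin for methylation, fell by 0.51 (limma adjusted p = 0.018), a call lost without WT replicate 1 (0.060), WT replicate 3 (0.056) or KO replicate 1 (0.074). Uhrf1, the partner that brings Dnmt1 to replicated DNA, stood at -0.09 and was not called. The count of rises was 2 without KO replicate 2 or KO replicate 3, and the count of falls was 1 without WT replicate 1, WT replicate 3 or KO replicate 1 and 2 without KO replicate 3. The count of falls was 6 without WT replicate 2 and 5 without KO replicate 2 or with probe sets averaged.

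**Figure D4:**
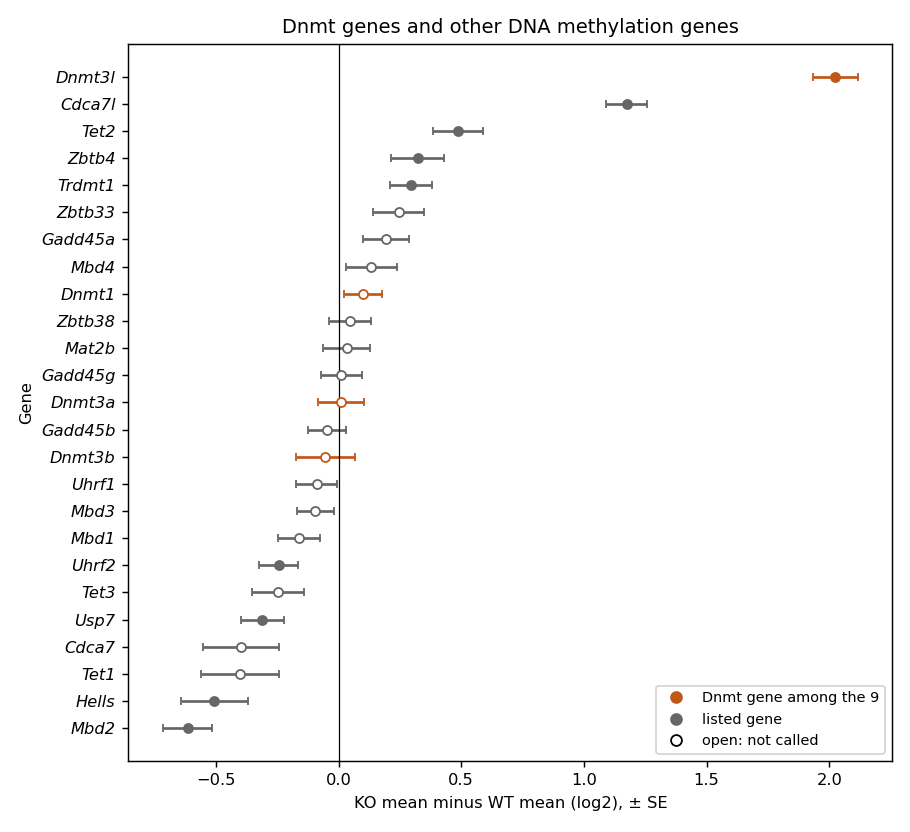
KO minus WT difference in log2 (horizontal axis, bars give the SE of the fit) for the 4 Dnmt genes (orange) and the 21 tested genes of the DNA methylation list (grey), ordered by size. Filled points were called and open points were not. Dnmt3l at 2.02 and Cdca7l at 1.17 lie apart from the rest, which run from -0.61 to 0.49.

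Histone enzymes and repressors that steer de novo methylation were lower where they were called. By limma 6 of the 25 tested fell and 0 rose, against 14.1% and 12% of all tested genes. At an unadjusted limma p under 0.05 the counts were 8 and 1, and the median was -0.12. Kdm5b, which removes the lysine 4 methylation that keeps Dnmt3l off histone H3, fell from 9.45, 9.47 and 9.53 to 9.05, 8.83 and 8.94, a difference of -0.55 (SE 0.09, n = 3 per group, limma adjusted p = 0.00073). Kdm1b, which acts on the same mark in oocytes, stood at 0.26 and was not called (limma adjusted p = 0.056). The deacetylase gene Hdac1 fell by 0.34 (limma adjusted p = 0.014) and Hdac2 fell by 0.41 (0.029). Morc2a, a silencing factor, fell by 0.39 (0.013). Morc2a lost its call without KO replicate 3 (0.063), and Hdac2 with any one of WT replicate 3 (0.083), KO replicate 1 (0.085) and KO replicate 3 (0.12) left out. The falls numbered 3 without WT replicate 3 or KO replicate 1 and 2 without KO replicate 3, and Kdm1b was called higher without WT replicate 3 (0.036), with array weights (0.029), with trended, robust variances (0.0373), with an offset of 32 (0.038), after a further quantile normalization (0.041) and with the stricter filter (0.045).

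Genes of germ cells, many of which are silenced by DNA methylation in other tissues, were mostly dim: 25 of 34 were not tested, among them Dazl at 4.10 and 3.98 (WT and KO means, log2), Ddx4 and Sycp3. Of the 9 tested, 5 rose and 3 fell by limma, against 12% and 14.1% of all tested genes. Mei4, which acts in meiotic DNA breaks, rose by 1.03 (SE 0.12, limma adjusted p = 7.9e-05), Tex14, of the bridges between germ cells, by 0.67 (SE 0.09, 0.00032) and Stra8, which starts meiosis, by 0.57 (SE 0.09, 0.0010). The pluripotency factor gene Pou5f1 fell by 1.38 (SE 0.15, limma adjusted p = 6.5e-05); only its WT arrays were above the filter, so that no rise could have been found. Dppa3, which guards maternal methylation, fell by 0.39 (SE 0.08, 0.0040). The rises numbered 3 without KO replicate 1 or KO replicate 3. With the stricter filter 3 rose and 1 fell, and the other called genes were too dim to be tested.

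Imprinted genes, whose allele-specific methylation depends on Dnmt3l in germ cells, fell or were not called. By limma 8 of the 17 tested fell and 0 rose, against 14.1% and 12% of all tested genes. At an unadjusted limma p under 0.05 the counts were 8 and 1, and the median was -0.14. Among the falls, Peg10 (-0.32) was above the filter on its WT arrays alone, so a fall was the one call it could get. The zinc finger gene Plagl1 fell from 10.30, 10.31 and 10.47 to 9.73, 9.70 and 9.70, a difference of -0.65 (SE 0.08, limma adjusted p = 0.00016, 3 mice a group). The growth factor gene Igf2 fell by 0.66 (SE 0.10, 0.00045), Dlk1 fell by 0.61 (SE 0.10, 0.00095) and Ndn fell by 0.62 (SE 0.10, 0.0011). Igf2r stood at -0.01 and was not called. Sums over both alleles are measured here, so allelic expression was not seen. The falls numbered 5 with the stricter filter, which left the other genes called lower untested. Without WT replicate 1 or WT replicate 2, 1 gene was called higher.

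Genes that share a pathway with the neighbours of Aire gave these values. Of 20 tested glycolysis genes other than Pfkl, 7 rose and 2 fell by limma, against 12% and 14.1% of all tested genes. Their median was 0.09. Among the rises, Hk3 (0.53) was above the filter on its KO arrays alone, so a rise was the one call it could get. Pfkm, the muscle-type phosphofructokinase subunit, rose from 8.41, 8.33 and 8.44 to 9.33, 9.26 and 9.52, a difference of 0.98 (SE 0.09, n = 3 per group, limma adjusted p = 1.4e-05), larger than that of Pfkl itself. The platelet-type subunit gene Pfkp stood at -0.15 and was not called. Hk2, the first enzyme of the pathway, rose by 0.54 (SE 0.10, 0.0022), the glucose transporter gene Slc2a1 by 0.46 (SE 0.09, 0.0037), and the lactate dehydrogenase gene Ldhb fell by 0.57 (SE 0.08, 0.00042). The rises numbered 4 without KO replicate 1 or KO replicate 3, and the falls 1 without KO replicate 2 or KO replicate 3. Of 4 tested relatives of Trpm2, Trpm4 rose by 0.32 (limma adjusted p = 0.032) and Trpm7 fell by 0.32 (0.0497). Trpm5 stood at -0.35 with groups that did not overlap and was not called (0.060), but it was called lower without KO replicate 3 (0.0088). At an unadjusted limma p under 0.05 the counts for the 4 were 1 higher and 2 lower. The call of Trpm4 was lost without WT replicates 2 (0.063) or 3 (0.081) or KO replicates 1 (0.14) or 2 (0.051). That of Trpm7 was lost with no filter (0.059), with median centring (0.061) and with every probe set on its own (0.052), and also without WT replicate 1 (0.075), WT replicate 3 (0.14), KO replicate 1 (0.15) or KO replicate 3 (0.17).

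Dnmt1 acts at replication forks, and replication genes were read beside it. By limma 5 of the 18 tested fell and 0 rose, against 14.1% and 12% of all tested genes. At an unadjusted limma p under 0.05 the counts were 6 and 0, and the median was -0.18. The other 13 were not called, among them Cdk1 at 0.22 and Rfc3 at 0.07. Mki67, a marker of cycling cells, fell by 0.54 (SE 0.11, limma adjusted p = 0.0034) and the topoisomerase gene Top2a fell by 0.63 (SE 0.12, 0.0026), a call that Top2a lost when its probe sets were averaged (-0.24, 0.10). Pcna, the replication clamp, stood at -0.04 and was not called. The falls numbered 2 without WT replicate 1 or KO replicate 1 and 3 without WT replicate 3. 

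Markers of other cells were read beside the rise of Dnmt3l. For comparison, 12% of all tested genes rose and 14.1% fell by limma. Of 3 tested B cell markers, Pax5, Cd79b and Blnk, 3 rose, by 0.31, 0.24 and 0.24, and their list summed to 1992 to 2052 intensity units in WT and 2253 to 2429 in KO. Of the 3 calls 0 were left when WT replicate 1, KO replicate 1 or KO replicate 2 was taken out. When WT replicate 2 or KO replicate 3 was taken out, 1 was left. The defining genes Cd79a and Ms4a1 were too dim to test and went the other way, at -0.11 and -0.48. Of 8 tested thymocyte and T cell markers 2, Cd3g and Ptprc, fell and 0 rose by limma (2 and 0 at an unadjusted p under 0.05). The falls numbered 1 without WT replicate 3 or KO replicate 3 or with trended, robust variances. They also numbered 1 with the stricter filter, which left Ptprc untested. The list summed to 1153 to 1926 in WT and 850.0 to 1149 in KO. Of 7 tested dendritic cell and macrophage markers Zbtb46 (0.44) and Batf3 (0.64) rose and Csf1r (-0.54), Itgam (-1.29) and Adgre1 (-1.58) fell, with sums of 1050 to 1162 and 1030 to 1052. For Itgam and Adgre1 only the WT arrays passed the filter, so each could be called in 1 direction. With the stricter filter 0 markers fell, since Csf1r, Itgam and Adgre1 were then too dim to be tested. Of 4 tested cortical epithelial markers 1 rose and 1 fell (2 rose without WT replicate 3 and 0 without KO replicate 2), with sums of 2481 to 2821 and 1984 to 2285. Of 6 tested fibroblast and endothelial markers 0 rose and 1 fell by limma (0 and 2 at an unadjusted p under 0.05; 2 fell without WT replicate 2 or with array weights), with sums of 1023 to 1101 and 827.7 to 945.9. The medullary list summed to 58891 to 59743 in WT and 61198 to 63762 in KO, and its falls numbered 1 without KO replicate 1. All these sums are on the linear scale and are weighted to the brightest genes, such as Blnk, Ctsl and Cd74. They do not measure numbers of cells. The part of other cells in the rise of Dnmt3l was not tested.

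Among the 13924 other tested genes, the profiles most like that of Dnmt3l were sought by the root mean square difference of log2 values, each gene centred on its own mean over the 6 arrays. The nearest was Ly9, a receptor of lymphocytes, at 0.058, followed by Serpina9 at 0.108, B3galt5 at 0.142, Ctla4, the inhibitory receptor of T cells, at 0.155, Ostn at 0.164 and I830077J02Rik at 0.187. The median over all those genes was 1.01. Ly9 read 7.58, 7.61 and 7.82 in WT and 9.73, 9.67 and 9.56 in KO, so that its difference of 1.99 nearly equalled that of Dnmt3l. The 6 lie on chromosomes 1, 3, 12 and 16, none on that of Dnmt3l. The nearest of the other 8 members was Pfkl, at 0.790. The measure follows the size of the rise, which 73 genes called higher by at least 2-fold shared in part.

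**Figure D5:**
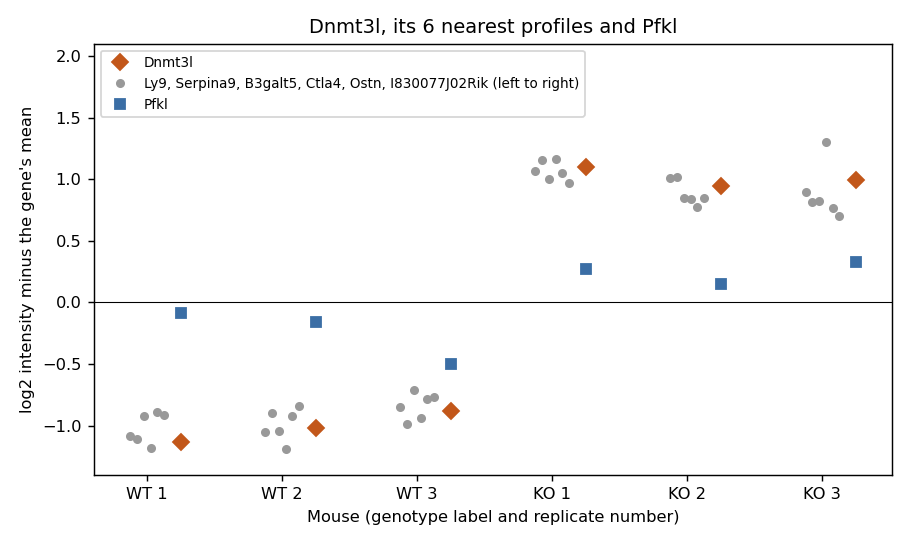
Log2 intensity minus the gene's own mean over the 6 arrays (vertical axis) in each mouse for Dnmt3l (orange diamonds), the 6 genes with the nearest profiles (grey points) and Pfkl (blue squares). The grey points lie close to Dnmt3l in every mouse because they were picked for that on these arrays, and Pfkl moves the same way by 0.50 between the group means.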

How the data were processed

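Per the submitters' processing notes, the authors made the deposited probe set intensities with RMA, which subtracts background, gives all arrays one distribution and summarises probes; the values are on the linear scale, with no version or build in those notes. Per the labels' protocols, RNA was amplified in 2 rounds. RMA calls no probe set detected, and folds are compressed where signal is near background. Precision is limited by the number of arrays, 3 per group, each from 1 mouse.

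The deposited intensities were log2 transformed (pseudocount 0). Of 35512 probe sets, 21789 had 1 gene symbol, 1621 several and 12102 none in the platform annotation. A gene was its 1-symbol probe set of highest mean, which for each of the 9 genes was its only one. Entrez identifiers of 21698 matched RefSeq (GRCm38.p6), used for names, gene order and sequences, and 8 of the 9 genes had promoter windows. A gene was tested if above the 40th percentile of all values (5.97) on at least 3 arrays. The fit was limma 3.58.1 (lmFit, eBayes, two-sided) in R 4.3.3, genotype alone, Benjamini-Hochberg over 13925 genes, threshold 0.05, checked on simulated data. SE is from that fit. Figures used matplotlib 3.10.9.

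The 9 genes, the gene lists, the test and the alternatives were chosen with earlier results of these data known. Named genes are the 9, the genes around Aire, up to 4 called genes of a pathway list by adjusted p with up to 2 central ones, and the 6 nearest profiles. Other markers, Tet1, Tet3 and Trpm5 were named after their values were seen. Alternatives were no filter or a 60th percentile one, other normalization, an offset of 32, the probe set rule, variance model, array weights, a replicate block and each array left out.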

Additional observations from a re-analysis of the deposited data

How the results depend on the processing

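Dnmt3l, Pfkl and Gatd3a kept their direction and their call under all 16 alternatives each, Dnmt3l between 1.93 and 2.08 under processing choices. Lrrc3 kept its direction but not its call with the replicate block or without any one array. Trpm2, Tspear, Dnmt1, Dnmt3a and Dnmt3b were not called under any alternative that tested them; the 60th percentile filter left Trpm2, Tspear and Dnmt3b untested. Over the whole table, 1676 genes were called higher and 1963 lower; without 1 array these were 1052 (without KO replicate 1) to 1547 higher and 1364 to 1877 lower, and with array weights 2013 and 2319. Among 2693 comparisons of 171 listed or neighbouring genes, 2519 kept their side of the threshold, 127 lost a call, 47 gained one and 0 reversed. The numbers of the mice were not shown to pair them: same-numbered arrays correlated at -0.02, -0.21 and -0.06 in their deviations from group means. With the replicate block, 1368 genes were called higher and 1742 lower, Trpm7 lost its call (0.073) and 1 B cell marker was called higher; with no filter 1 was called higher and 1 lower. In dim genes such as Trpm2 the signal is nearer background, where folds are compressed, and the amount of compression was not measured here. The cause of these changes was not tested.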
